A study of Mus musculus with 22 samples.

Results

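The nuclei described here are those of the mouse lumbar dorsal horn that carried no GFP label, compared between animals of postnatal day 7 (P7) and animals of day 80 (P80). They were chosen by their library columns: 4 GFP- libraries at P7 and 4 at P80, 8 of the 22 libraries of the series, with 3 GFP- libraries of P21 set beside them. All animals were of the pDyn-Sun1-GFP strain, so the animals of every age carried the transgene. The strain's name joins the dynorphin precursor gene, the nuclear envelope protein Sun1 and GFP. Whether the label follows present or earlier activity of the dynorphin precursor gene was not tested. Nuclei were sorted by flow cytometry, 5000 to a library, and their RNA was amplified for 15 cycles. The GFP- libraries of an age came from separate animals and hold every nucleus type that lacked the label, which the labels leave unidentified. Both sexes are present at each age in the labels, but the table does not say which column is which sex. All 18614 genes that passed a filter on low values were compared, of 21363 in the table.

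The dorsal horn receives touch, itch and pain input and relays it through local excitatory neurons, which release glutamate, and inhibitory neurons, which release GABA or glycine. In the rodent spinal cord the first postnatal weeks are a time of glial cell division, myelin formation and synaptic refinement. Oligodendrocyte precursors divide and pass through a short newly formed stage before they make myelin, and radial glia and young astrocytes take on adult astrocyte functions over the same weeks. Nuclear RNA holds unspliced and retained transcripts beside messages on their way to the cytoplasm, so a level here is not the level of the cytoplasmic message.

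The unit throughout is the authors' normalized read count. A difference is P80 minus P7 in units of log2(value + 1), followed by its standard error (SE). A gene is called where limma's moderated test gave a Benjamini-Hochberg adjusted p under 0.05. Depth ran from 4244987 to 6777200 counted reads a library in the 8 libraries of P7 and P80. Pdyn, the dynorphin precursor gene, lay between 0 and 15.7 in the 8 GFP- libraries and between 405 and 663 in the GFP+ libraries. Neuronal, oligodendrocyte and astrocyte markers were present at both ages. The P80 library headed ES8 stood apart: its neuronal score, the mean log2(value + 1) over 15 pan-neuronal markers, was 8.30 against 8.84 to 9.34 in the other P80 libraries, and its score over 18 myelin genes was 11.22 against 9.30 to 10.25. At P21 the library headed ES16 stood apart, with vascular and immune markers higher than in the other P21 libraries, ES12 and ES14. It had 10849169 counted reads, against 6084021 in ES12 and 4438486 in ES14. Its mitochondrially encoded genes summed to 60450 normalized counts, against 2909 and 3095. Its Pearson correlation with each of them in log2(value + 1) was 0.845, and theirs with each other 0.942. Each result was also computed without ES8 and without ES16.

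Of the genes tested, 3041 (16.3%) were called, 1408 higher (7.56%) and 1633 lower (8.77%) at P80. The median difference over all genes was -0.02. At least a 2-fold difference was seen in 604 of the higher genes (3.24%) and 724 of the lower genes (3.89%), and at least an 8-fold difference in 44 and 57. In 3911 genes (21%) the 4 values of P80 and the 4 of P7 did not overlap, 1833 higher (9.85%) and 2078 lower (11.2%). Among genes that the authors' table marks as coding, 1229 of 15153 were higher and 1506 lower. Among the other genes, 179 of 3461 were higher and 127 lower, so the noncoding genes had more higher than lower calls and the coding genes the reverse.

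**Figure D1:**
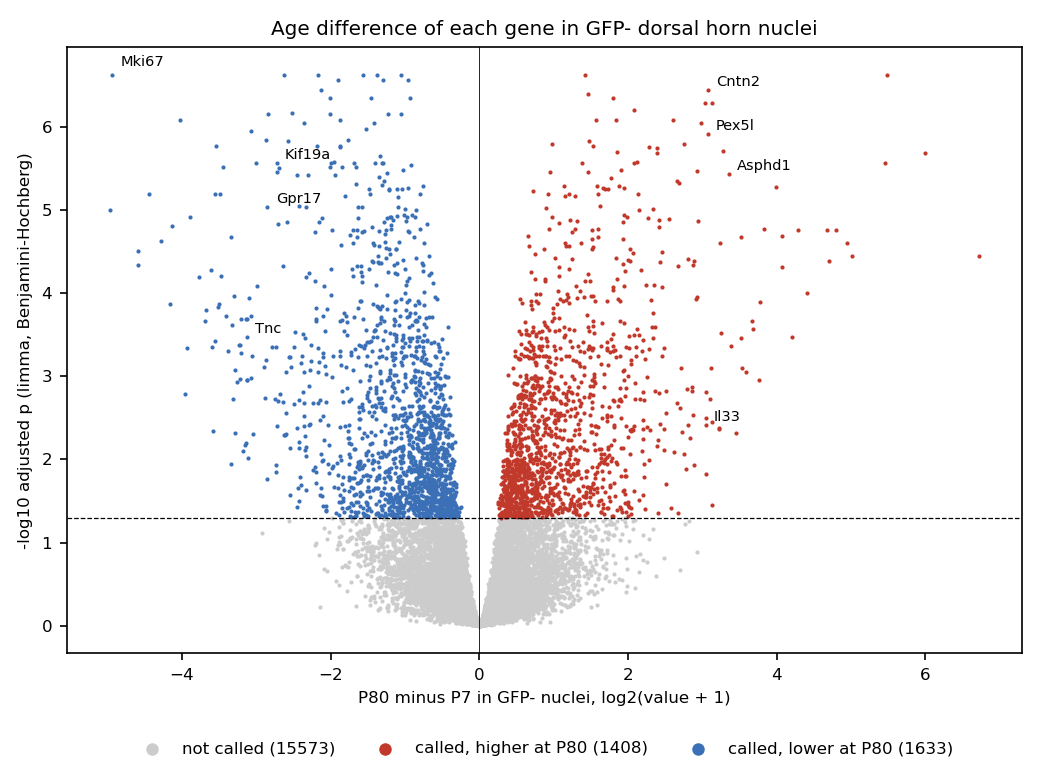
Each point is a gene, with its P80 minus P7 difference in GFP- nuclei on the x axis (log2(value + 1)) and the -log10 of its adjusted p on the y axis. Red points are the 1408 genes called higher and blue points the 1633 called lower. The dashed line is the adjusted p threshold of 0.05, and named points are genes described in the text.

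The genes with the largest differences are given first, from the called genes of at least median level whose ages did not overlap. The 12 highest of these included Cntn2, Car2 and Pex5l. Cntn2, a cell adhesion protein beside the node of Ranvier, had normalized counts of 328, 341, 409 and 509 in the P7 libraries and 2194, 2486, 3328 and 6573 in the P80 libraries. Every P80 value was more than the highest P7 value, with a difference of 3.08 ± 0.27 (SE) and an adjusted p of 3.6e-07. Car2, a carbonic anhydrase that oligodendrocytes make, was at 104, 107, 108 and 112 at P7 and 564, 743, 1081 and 2713 at P80, a difference of 3.27 ± 0.35 (SE). Its P7 values lay close together, and the P80 values were spread, with ES8 the highest. Pex5l, an auxiliary subunit of HCN channels, went from 287, 326, 361 and 390.3 to 1914, 1964, 2828 and 6246, a difference of 3.07 ± 0.31 (SE).

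Dock5, an activator of the GTPase Rac, differed by 3.13 ± 0.29 (SE), and Pls1, an actin bundling protein, by 3.04 ± 0.29 (SE). Arsg, a lysosomal sulfatase, differed by 2.98 ± 0.30 (SE), Qdpr, which recycles the cofactor tetrahydrobiopterin, by 2.93 ± 0.33 (SE), and Asphd1 by 3.35 ± 0.38 (SE). D7Ertd443e was higher by 2.89 ± 0.41 (SE), the nucleotide exchange factor Rasgrp3 by 2.81 ± 0.39 (SE) and the small GTPase Rab37 by 2.69 ± 0.32 (SE). By the naming rule the groups did not overlap in any of these genes, and ES8 held the highest P80 value of each. Il33, an alarmin cytokine stored in nuclei, was at 37.5, 56.5, 61.4 and 84.1 at P7 and 233, 319, 572 and 1269 at P80, a difference of 3.04 ± 0.69 (SE). Its P21 values were 30.3, 54.5 and 859, so ES16 lay within the P80 range and the other P21 libraries did not.

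The 12 lowest by the same rule included Mki67, Ncapg and Kif19a, and Gpr17, Itpr2, Tnc, Gfap and Ncan, which are described with their lists. Mki67, the proliferation antigen Ki-67, had normalized counts of 936, 984, 1017 and 1874 at P7 and 26.1, 29.1, 45.2 and 51.5 at P80. The lowest P7 library was at 936 and the highest P80 library at 51.5, and the difference was -4.94 ± 0.40 (SE) with an adjusted p of 2.35e-07. Ncapg, a condensin subunit that compacts mitotic chromosomes, fell by 2.12 on the log2 scale. Kif19a, a kinesin that controls the length of motile cilia, fell by 2.72.

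Svep1, an extracellular adhesion protein, and Col9a3, a chain of collagen IX, differed by -2.11 ± 0.38 (SE) and -2.84 ± 0.27 (SE). Cnksr3, a signalling scaffold, and Afap1l2, an adaptor of Src family kinases, differed by -2.42 ± 0.30 (SE) and -2.15 ± 0.28 (SE). The groups did not overlap for any of them, which the naming rule requires. All 24 genes named by size of change kept their call in each of 9 refits that left out 1 library. They were picked as the largest called differences without overlap in these same libraries, so the choice favoured this outcome.

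**Figure D2:**
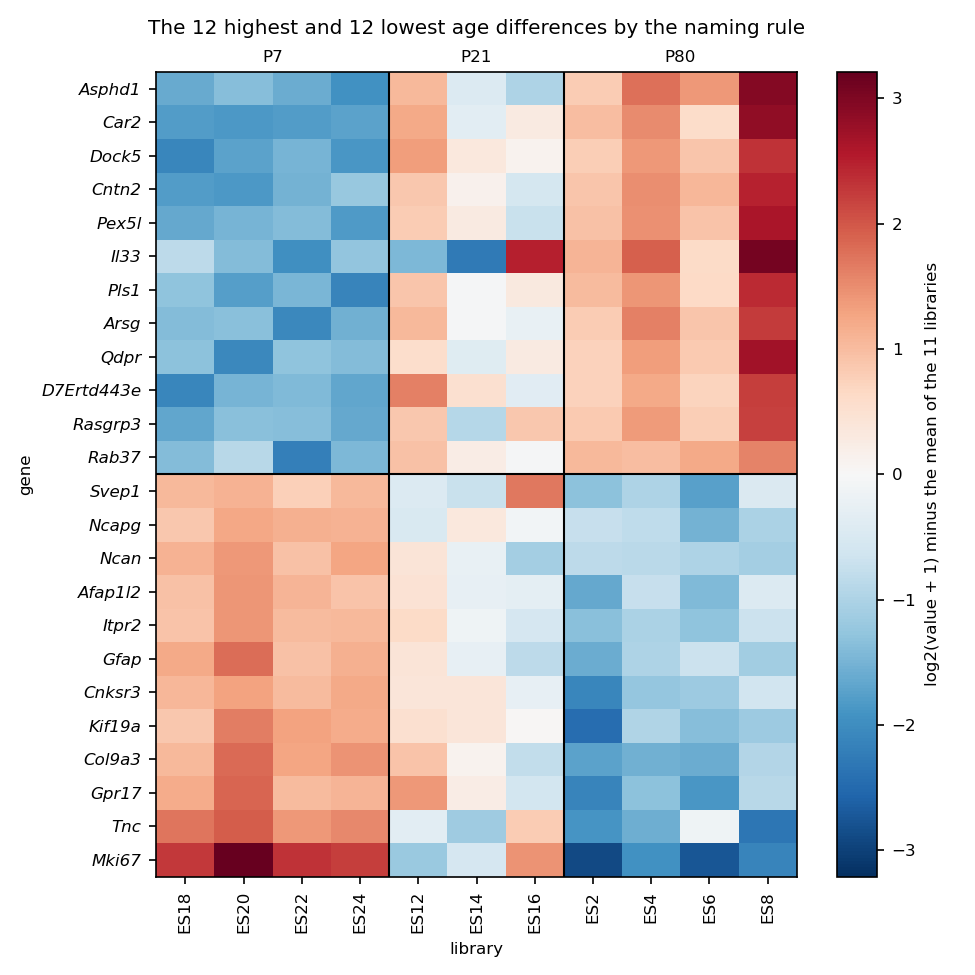
Rows are the 12 highest and 12 lowest age differences by the naming rule, columns the 11 GFP- libraries ordered by age, and colour is log2(value + 1) minus the gene's mean over the 11 libraries. P7 columns are blue in the upper rows and red in the lower rows, P80 columns the reverse. ES8 is the darkest P80 column for most upper rows, and ES16 departs from its P21 neighbours for Il33, Mki67 and Svep1.

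Cell cycle genes fell together. Of 26 tested members, 17 fell and 0 rose, with a median difference of -1.73, where 8.77% of all genes tested fell. Top2a, the topoisomerase that untangles DNA before division, was at 269.9, 307, 310.5 and 440.4 at P7 and 9.14, 11.03, 17.2 and 22.4 at P80, a difference of -4.44 ± 0.53 (SE). Cenpf, a kinetochore protein, went from 144, 159.9, 169 and 206 to 9.04, 9.14, 10.1 and 14.04, a difference of -3.89 ± 0.49 (SE). Kif11, the motor that separates spindle poles, went from 134, 146, 184 and 201 to 6.33, 12.03, 15.7 and 23.5, a difference of -3.55 ± 0.43 (SE). For these genes the P80 values were all far under the P7 values. In RNA from sorted nuclei in bulk, fewer nuclei of a type and less RNA per nucleus cannot be told apart.

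Other members that fell were the mitotic kinase Cdk1 (-3.95), its partner cyclin B1 (Ccnb1, -3.15), the checkpoint kinase Bub1 (-4.28), the mitotic kinase Aurkb (-3.13), the transcription factor E2f8 (-3.44) and the ribonucleotide reductase subunit Rrm2 (-3.14). Cdk1, Ccnb1, Bub1 and Aurkb were at or under 6.53 normalized counts in all P80 libraries, so their fold differences rest on few reads. The replication helicase genes Mcm5 and Mcm6 differed by -1.83 ± 0.54 (SE) and -1.63 ± 0.43 (SE). The sliding clamp gene Pcna had a difference of -0.47 and was not called. Ccna2, Aurka and Mcm5 passed narrowly: without a single library their adjusted p rose past the threshold (Ccna2 without ES2, ES6, ES20, ES22 or ES24, adjusted p 0.0615 to 0.0868; Aurka without ES2, ES4, ES18, ES20 or ES22, adjusted p 0.05 to 0.0733; Mcm5 without ES2, ES20 or ES24, adjusted p 0.0563 to 0.0757). At P21 Mki67 was at 87.2, 139 and 546 and Top2a at 37.6, 60.7 and 554. The highest P21 value of both genes was in ES16, and in Top2a it exceeded all 4 P7 libraries.

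Promoter sequences of these genes share letters that were counted over all genes. A RefSeq window of 250 bases before and 50 after the gene's start was found for 15 of the 17 cell cycle genes that fell and for 11610 of all genes tested. A gene counts as having a motif if any of its windows held it. The CHR element (TTTGAA or TTCGAA) is a motif known from genes expressed at mitosis. It was in 9 of the 15 genes (60%) and in 16.3% of all genes with a window. The CCAAT box (CCAAT), known as the site of the factor NF-Y, was in 14 of the 15 (93.3%) and in 42.4% of all genes with a window. The E2F motif (TTTGGCGC or TTTCCCGC) is known from genes of DNA replication. It was in 2 of the 15 (13.3%), Mcm5 and Mcm6, and in 3.01% of all genes with a window. Over the cell cycle members tested, called or not, 23 had a window, 13 of them with a CHR element (56.5%) and 20 with a CCAAT box (87%). Among all genes lower at P80, CHR was in 16.5% and the CCAAT box in 46.8%. The CCAAT box was also in 5 of 5 cholesterol and fatty acid synthesis genes that fell. It was in 5 of 6 genes responsive to glucocorticoid or thyroid hormone that rose. Both strands were searched, and a match is a description of letters, not of a bound site. The 250 bases before the start of Mki67 and Top2a are shown because these genes had the lowest differences among the members with both motifs. Capitals mark CHR and CCAAT matches on either strand, from RefSeq on GRCm38.p6, for both genes the minus strand, at chr7:135716380-135716629 and chr11:99024190-99024439:
Mki67: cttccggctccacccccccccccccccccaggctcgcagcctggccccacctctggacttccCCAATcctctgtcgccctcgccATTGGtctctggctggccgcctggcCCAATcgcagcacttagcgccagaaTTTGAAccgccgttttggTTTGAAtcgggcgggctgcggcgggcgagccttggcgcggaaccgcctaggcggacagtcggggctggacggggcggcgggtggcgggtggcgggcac
Top2a: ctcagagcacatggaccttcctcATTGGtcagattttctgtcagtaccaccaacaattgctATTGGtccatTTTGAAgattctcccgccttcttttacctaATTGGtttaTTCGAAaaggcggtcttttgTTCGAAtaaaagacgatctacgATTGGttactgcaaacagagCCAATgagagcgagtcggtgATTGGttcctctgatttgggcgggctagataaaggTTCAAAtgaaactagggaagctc
The Mki67 stretch holds 2 CHR and 3 CCAAT matches, and the Top2a stretch 4 CHR and 6 CCAAT matches.

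The oligodendrocyte lineage moved in opposite directions at its early and late stages. Genes of newly formed oligodendrocytes fell: 10 of 12 tested members were lower and 0 higher, with a median of -1.73. Over all genes tested, 8.77% fell. Gpr17, a receptor of the stage between precursor and myelinating cell, was at 1648, 1732, 1841 and 2935 at P7 and 185, 219.6, 321 and 432 at P80, a difference of -2.85 ± 0.35 (SE). Itpr2, an inositol trisphosphate receptor that marks the same stage, went from 2277, 2471, 2489 and 3222 to 479, 495, 602 and 758, a difference of -2.17 ± 0.19 (SE). Bmp4, a secreted growth factor, went from 95.4, 127, 153 and 274 to 7.84, 9.04, 29.1 and 32.4, a difference of -3.13 ± 0.51 (SE). The groups did not overlap in any of them, and at P21 Gpr17 spanned 537, 953 and 2120.2, within the P7 range or between the ages.

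The calcium sensing receptor Casr was between 0 and 3.36 at P80 and between 49.9 and 85.5 at P7. Tcf7l2, a transcription factor of Wnt signalling that oligodendrocytes use as they mature, differed by -2.05 ± 0.33 (SE) and the kinase Fyn by -1.30 ± 0.12 (SE). Rras2, a small GTPase, and Tmem2, a hyaluronidase of the cell surface, differed by -1.86 ± 0.26 (SE) and -1.60 ± 0.25 (SE). Enpp6, an enzyme of choline metabolism, and Bcas1 differed by -0.47 and -0.92 and were not called, but Bcas1 was without ES8 (adjusted p 0.00641) or ES16 (0.0198). Neu4 lost its call without ES2, ES6, ES20 or ES22, adjusted p 0.0624 to 0.104, and Frmd4a without ES8, adjusted p 0.0555.

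Among 11 precursor genes, 8 fell and none rose, with a median of -1.36, where 8.77% of all genes tested fell. Gpr17 is counted here as well as with the newly formed oligodendrocyte genes. Pdgfra, the growth factor receptor that defines the precursors, was at 958, 1220.1, 1315 and 1699.6 at P7 and 278, 296, 606 and 617 at P80, a difference of -1.60 ± 0.31 (SE). The highest P80 value was under the lowest P7 value. Matn4 and Tnr, both matrix proteins, differed by -1.97 ± 0.36 (SE) and -1.36 ± 0.22 (SE). Olig1, Olig2 and Sox10, transcription factors of the whole lineage, differed by -0.45, -1.07 and -0.40 and were not called. Olig2 was called lower without ES8, at -1.36 with an adjusted p of 0.0197, and without ES16 (adjusted p 0.0359). Cspg4, the NG2 proteoglycan, differed by -1.52 and lost its call without ES2, ES6, ES20 or ES24, adjusted p 0.054 to 0.0754.

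Of 18 genes of mature oligodendrocytes and myelin, 9 rose and none fell, with a median of 1.55, where 7.56% of all genes tested rose. Klk6, a secreted protease of mature oligodendrocytes, was at 0.924, 1.89, 2.42 and 2.96 at P7 and 36.6, 72.2, 74.9 and 152 at P80, a difference of 4.67 ± 0.62 (SE). Opalin, a membrane protein of myelin, went from 44.4, 47.2, 66.04 and 76.6 to 155, 199.8, 404 and 735, a difference of 2.42 ± 0.49 (SE). Aspa, which breaks down N-acetylaspartate, went from 411, 440.2, 443 and 611 to 1366, 1621, 2877 and 5075, a difference of 2.34 ± 0.37 (SE). The groups did not overlap, and ES8 held the highest value of each. Ermn, a cytoskeletal protein of myelinating cells, differed by 2.35 ± 0.35 (SE) and Hapln2, a link protein at the node of Ranvier, by 2.23 ± 0.41 (SE). Apod, a lipid carrier, differed by 2.11 ± 0.37 (SE), Mal, a lipid raft protein of myelin, by 1.89 ± 0.38 (SE), the gap junction gene Gjb1 by 1.69 ± 0.44 (SE) and the fatty acid hydroxylase Fa2h by 1.41 ± 0.35 (SE).

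Genes of several major myelin proteins were not among them. Mbp, myelin basic protein, had normalized counts of 12210.3, 12722, 15274 and 15963 at P7 and 8094, 8560.1, 13889 and 26667 at P80, a difference of -0.14 ± 0.31 (SE) with an adjusted p of 0.817. The ages overlapped, and ES8 was the highest P80 library, over all P7 libraries. Mobp, Cnp, Mag and Mog differed by 0.19, 0.10, 0.80 and 0.82 and were not called, but Mag was without ES2 (adjusted p 0.0463). The whole myelin score was 8.33, 8.42, 8.71 and 8.78 in the P7 libraries, 9.21, 9.82 and 10.96 at P21 and 9.30, 9.46, 10.25 and 11.22 at P80. Without ES8, 9 members rose and the median was 1.19. Schwann cell markers, which nerve roots in the dissection would carry, gave 0 higher and 1 lower gene of 7. Over all genes tested, 7.56% rose and 8.77% fell. The lower gene was Pou3f1 (-1.53), which was not called without ES2, ES4, ES6, ES18, ES20, ES22 or ES24, adjusted p 0.0628 to 0.127.

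**Figure D3:**
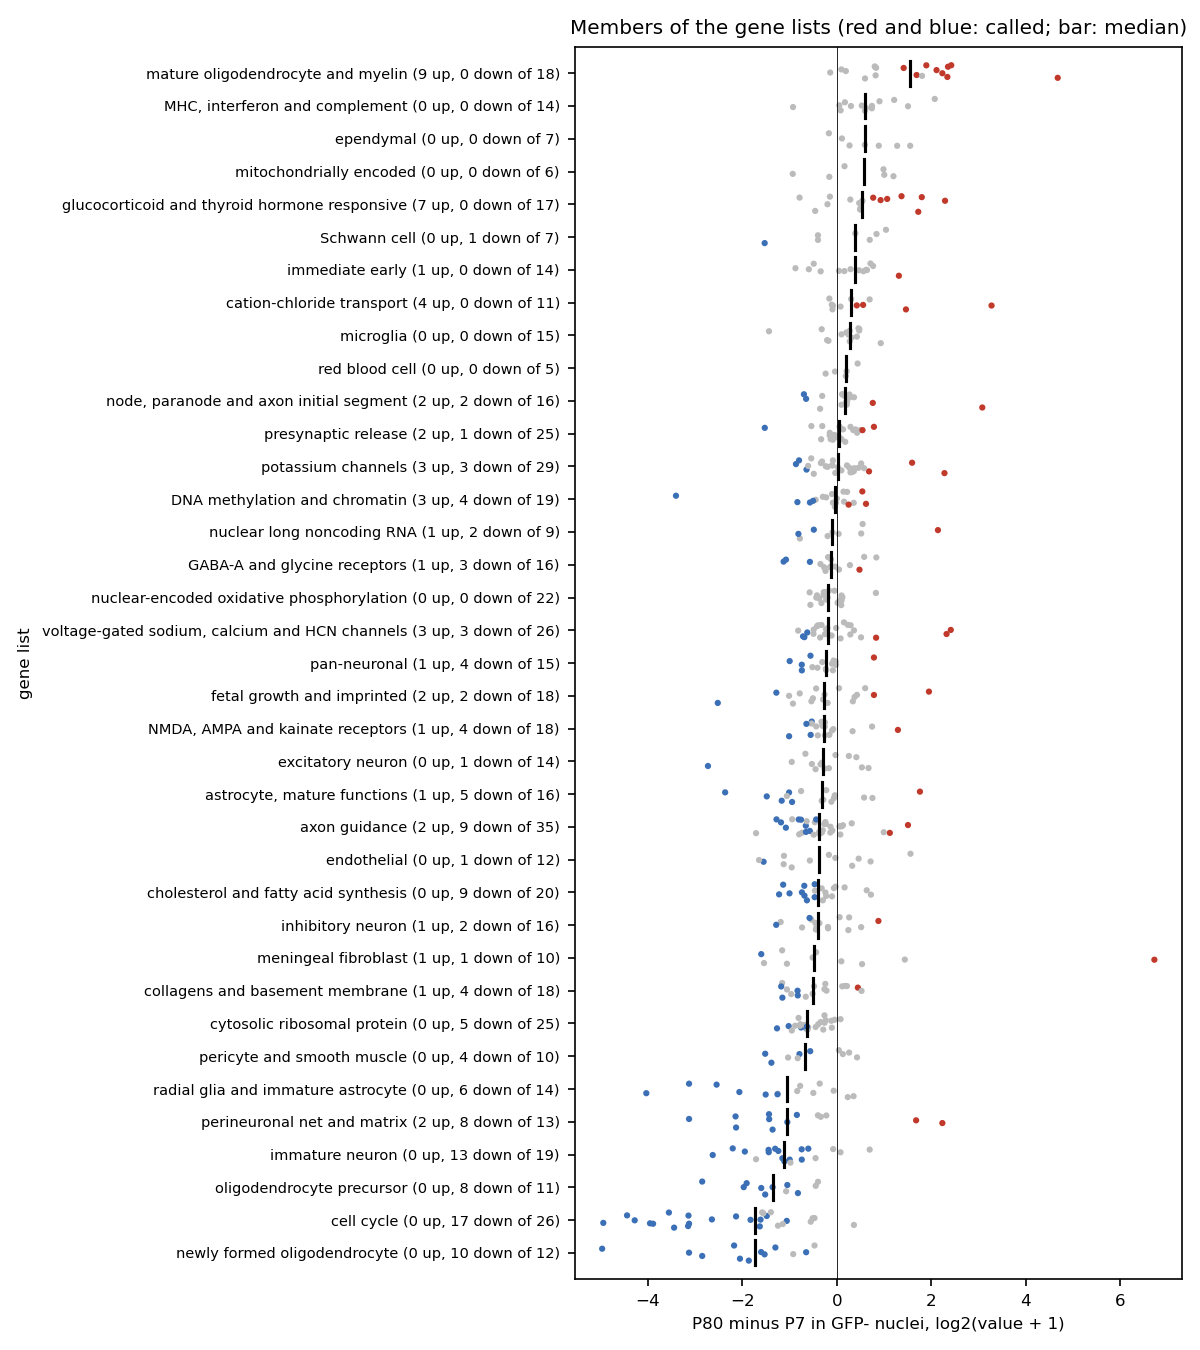
Points are the tested members of each gene list with at least 5 of them, placed by their P80 minus P7 difference (log2(value + 1)); red and blue points are called higher and lower, grey points are not called, and black bars are list medians. Lists are ordered by median, from newly formed oligodendrocyte and cell cycle genes at -1.73 at the bottom to myelin genes at 1.55 at the top.

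Young astrocyte and radial glia genes fell in part. Of 14 tested, 6 fell and none rose, where 8.77% of all genes tested fell. The median was -1.05, and -0.53 without ES2. Fabp7, the fatty acid binding protein of radial glia, was at 232, 251, 352 and 381 at P7 and 11.8, 16.04, 18.1 and 25.7 at P80, a difference of -4.03 ± 0.40 (SE) with an adjusted p of 8.26e-07. Tnc, the matrix protein tenascin C, went from 727, 811, 914 and 1063 to 54.3, 74.4, 92.8 and 252, a difference of -3.13 ± 0.53 (SE). Both genes separated the ages completely, and at P21 Fabp7 was already at 23.5, 35.4 and 66.4. Ptn, a growth factor, and Slc6a11, a GABA transporter of astrocytes, differed by -1.51 ± 0.26 (SE) and -1.26 ± 0.23 (SE). The Notch target Hes5 and the inhibitor of differentiation Id3 fell by 2.54 and 2.06 on the log2 scale. Nes, Vim and Sox2 differed by -1.25, -0.36 and 0.35 and were not called.

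Astrocyte genes linked to adult functions were mixed: of 16, 1 rose and 5 fell, with a median of -0.30 (-0.20 without ES2). Over all genes tested, 7.56% rose and 8.77% fell. Gfap, the intermediate filament of astrocytes, was at 1428, 1634, 1721 and 2565 at P7, 417, 625 and 994 at P21 and 246, 341, 375 and 464 at P80. Its difference was -2.36 ± 0.24 (SE), and no P80 or P21 library reached the P7 range. Aqp4, the water channel of astrocyte endfeet, went from 1897, 2202, 2647 and 3269 to 726, 834, 925 and 1053, a difference of -1.48 ± 0.21 (SE). Aldh1l1, a folate enzyme, differed by -1.17 ± 0.26 (SE), the receptor Fgfr3 by -0.95 ± 0.25 (SE) and the glutamate transporter Slc1a3 by -1.01 ± 0.30 (SE). Glul, glutamine synthetase, rose from 367, 433, 438 and 544 to 836, 1086, 1463 and 3758, a difference of 1.76 ± 0.31 (SE); it is also made by oligodendrocytes. Slc1a2, Gja1 and Aldoc differed by -0.32, -0.06 and -0.22 and were not called. Without ES20 the lower genes were 3, as Fgfr3 (adjusted p 0.0569) and Slc1a3 (0.0708) lost their calls, and Slc1a3 also without ES2, ES6, ES18, ES20 or ES24, adjusted p 0.0564 to 0.082.

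Matrix genes fell more often than they rose. Of 13 genes of perineuronal nets and neural matrix, 8 fell and 2 rose, with a median of -1.05. Over all genes tested, 8.77% fell and 7.56% rose. Ncan, neurocan, was at 1178, 1326, 1489 and 1629 at P7, 289, 521 and 826 at P21 and 287, 309, 336 and 342 at P80, a difference of -2.13 ± 0.19 (SE). The 4 P80 values lay within a narrow range far under P7, ES8 included. Bcan, brevican, and Ptprz1, a receptor phosphatase that binds these proteoglycans, differed by -1.44 ± 0.25 (SE) and -1.43 ± 0.19 (SE). Reln, a secreted guide of neuron placement, differed by -0.85 ± 0.14 (SE), Vcan, versican, by -1.05 ± 0.24 (SE) and the hyaluronan synthase Has2 by -2.14 ± 0.48 (SE). Acan, the aggrecan of perineuronal nets, and the link protein Hapln1 differed by -0.34 and -0.40 and were not called. The link protein Hapln4 had 45.98, 62.9, 74.6 and 82.8 at P7 and 61.5, 191, 397 and 415 at P80, a difference of 1.68 ± 0.42 (SE): 3 P80 libraries were over all P7 libraries and ES8 lay among them. In a limma fit of the 8 libraries alone Hapln4 was not called (adjusted p 0.0529).

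Immature neuron genes fell. Of 19 tested members, 13 fell and none rose, with a median of -1.11, where 8.77% of all genes tested fell. Tubb2b, a tubulin of growing neurons, was at 156, 177, 219 and 228 at P7, 35.01, 59.4 and 67.4 at P21 and 24.8, 29.1, 33.5 and 35.1 at P80, a difference of -2.63 ± 0.23 (SE) with an adjusted p of 2.35e-07. Sox11, a transcription factor of newborn neurons, went from 77.4, 79.8, 88.7 and 107 to 12.7, 22.2, 27.1 and 30.2, a difference of -1.95 ± 0.22 (SE). Marcksl1, an actin regulator, went from 76.9, 107, 107 and 117 to 13.1, 16.04, 28.9 and 32.4, a difference of -2.20 ± 0.29 (SE). All P80 values were under all P7 values in these genes.

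Dpysl3, which helps collapse growth cones, differed by -1.30 ± 0.15 (SE), and the growth cone proteins Gap43 and Basp1 by -1.11 ± 0.23 (SE) and -1.24 ± 0.14 (SE). Sox4, Nrep and Tubb2a differed by -1.44, -1.44 and -1.15. Dcx, the microtubule protein doublecortin, differed by -0.74 and lost its call without ES4, ES8, ES18, ES20 or ES22, adjusted p 0.0525 to 0.119. Tubb3 did so without ES4, ES18 or ES24, adjusted p 0.0543 to 0.0735, and Dpysl5 without ES8, ES18 or ES24, adjusted p 0.052 to 0.0675. Stmn1, Ncam1 and Cd24a differed by 0.69, 0.08 and -0.08 and were not called, but Stmn1 was higher without ES6 (adjusted p 0.0377). The score of the list was 7.47, 7.51, 7.59 and 7.73 at P7, 6.59, 6.78 and 6.95 at P21 and 6.44, 6.47, 6.54 and 6.63 at P80, so P21 lay between the other ages or within the P80 range.

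**Figure D4:**
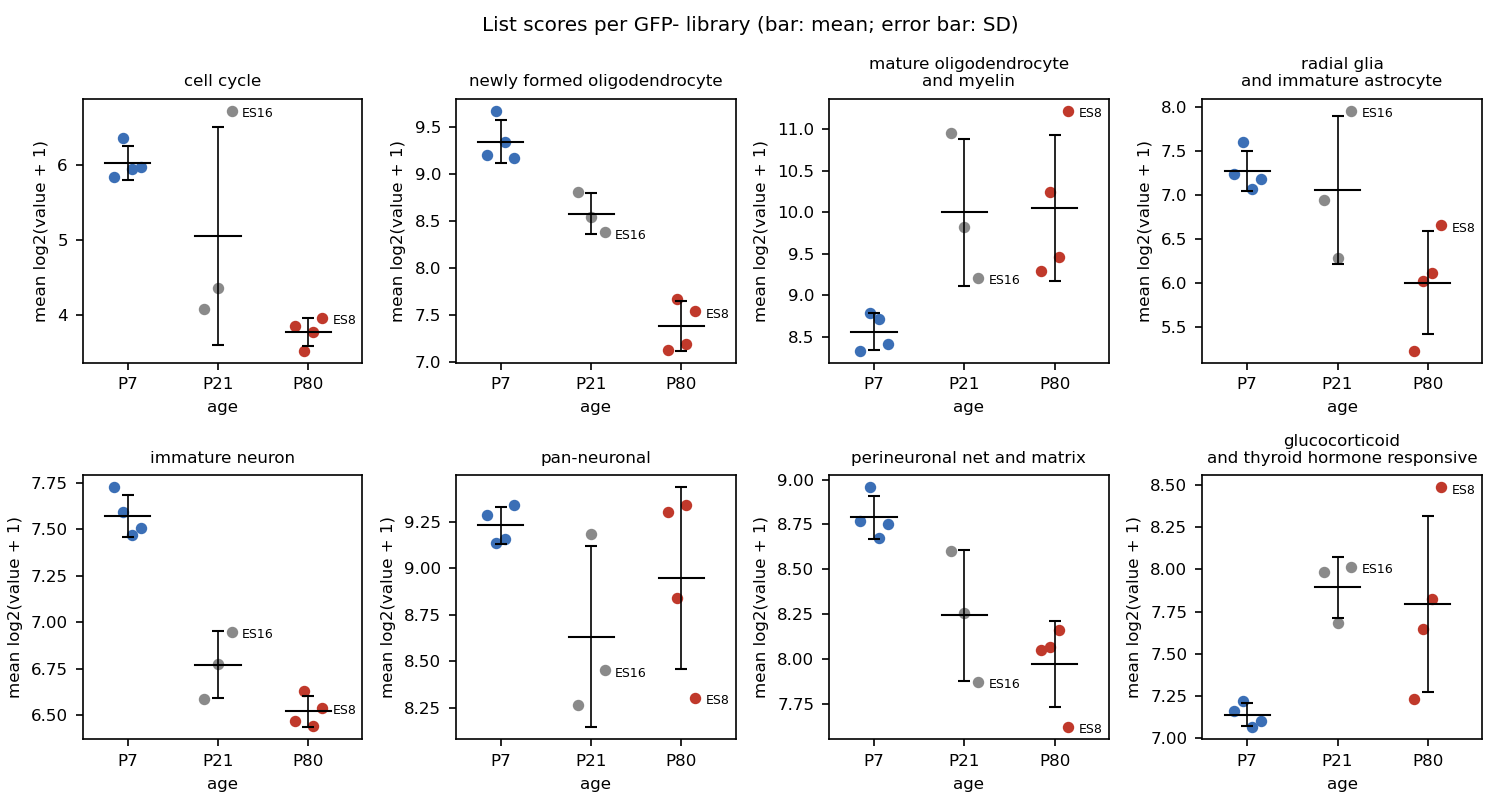
Each panel gives a gene list's score, the mean log2(value + 1) of its members, in each of the 11 GFP- libraries by age; bars are means and error bars SD, and the y axes do not start at 0. Cell cycle, newly formed oligodendrocyte and immature neuron scores do not overlap between P7 and P80, whereas the pan-neuronal scores do. ES8 is the lowest P80 library for neurons and the highest for myelin, and ES16 is the highest P21 library for cell cycle genes.

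Where 7.56% of all genes tested rose and 8.77% fell, general neuronal markers were mostly not called. Of 15, 1 rose and 4 fell, with a median of -0.23 that was -0.016 without ES8 and -0.37 without ES6; Rbfox3, the nuclear protein NeuN, differed by -0.10 ± 0.26 (SE) and was not called. Stmn2, a microtubule protein of axon growth, fell from 366, 379, 456 and 483 to 162, 178, 229.8 and 288, a difference of -0.998 ± 0.19 (SE). Snap25, a membrane fusion protein of synaptic vesicles, was at 1383, 1575, 1635 and 1654 at P7 and 1564, 2705, 3334 and 3687 at P80, a difference of 0.78 ± 0.21 (SE). Only ES8 of the P80 libraries lay within its P7 range. Snap25 lost its call without ES2, adjusted p 0.0554. The calls of Map2 and Celf4 were lost without ES8, with adjusted p of 0.0594 and 0.0649, which leaves 2 lower members, and leaving out ES24 gave the same count. The neuronal score without ES8 ranged from 8.84 to 9.34 at P80 and from 9.13 to 9.34 at P7.

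Markers of the main dorsal horn neuron classes were for the most part not called. Of 14 excitatory markers, 1 fell (2 without ES20 or ES16) and none rose, where 8.77% of all genes tested fell and 7.56% rose. Without ES16, 1 marker rose, Tac2, at 0.67 with an adjusted p of 0.0209. The lower marker was Slc17a8, a vesicular glutamate transporter, at 94.4, 113, 124 and 139 at P7, 13.7, 18.8 and 20.2 at P21 and 14.4, 14.5, 16.04 and 23.5 at P80. Its difference was -2.73 ± 0.31 (SE) with an adjusted p of 3.54e-06. Its lowest P7 value was far over the highest value of either later age. Slc17a6, the vesicular glutamate transporter of most excitatory dorsal horn neurons, differed by -0.17 ± 0.18 (SE) and was not called.

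Of 16 inhibitory markers, 1 rose and 2 fell (1 without ES8 or ES24, 3 without ES16). Over all genes tested, 7.56% rose and 8.77% fell. Penk, the enkephalin precursor, was at 122, 129, 148 and 199 at P7 and 203, 221, 311 and 386 at P80, a difference of 0.88 ± 0.22 (SE); the lowest P80 value, from ES8, was just over the highest P7 value. Rorb, a nuclear receptor of dorsal horn inhibitory neurons, fell by 0.58 on the log2 scale. Lhx1, a homeodomain factor of their development, differed by -1.28 and lost its call without ES8 or ES24, adjusted p 0.053 to 0.0659. Gad1, Gad2 and Slc32a1, which make and package GABA, differed by -0.44, -0.54 and -0.19 and were not called. Slc5a7, the choline transporter of cholinergic neurons, went from 83.8, 97.98, 138 and 154 to 10.1, 16.3, 17.05 and 22.2, a difference of -2.79 ± 0.50 (SE), while Chat differed by -0.14 and was not called. Both are among 3 motor neuron markers tested, of which 1 fell and 0 rose. The other, Prph, differed by -2.09 and was not called (limma adjusted p 0.0663), but was without ES6 (adjusted p 0.0425). The score of this list was 3.54 to 5.02 at P7 and 1.52 to 3.39 at P80.

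Axon guidance genes included more lower than higher calls. Of 35 tested, 9 fell and 2 rose, with a median of -0.37, where 7.56% of all genes tested rose and 8.77% fell. Without ES8 the median was -0.11. Sema6a, a transmembrane semaphorin, was at 1613, 1771, 1793 and 2034 at P7 and 585, 623, 849 and 975 at P80, a difference of -1.28 ± 0.15 (SE). Sema5a, a related protein, went from 1516, 1624, 1656 and 1699 to 577, 806, 836 and 895, a difference of -1.08 ± 0.15 (SE). Epha4, an ephrin receptor, differed by -0.66 ± 0.17 (SE). These 3 genes did not overlap between the ages. Unc5b, a netrin receptor, rose from 108, 133, 134 and 134 to 239, 252, 361 and 788, a difference of 1.51 ± 0.35 (SE). Efnb3, an ephrin ligand, differed by 1.12 and lost its call without ES4 or ES8, adjusted p 0.0503 to 0.066. The other lower calls (Slit1, Ntn1, Epha7, Sema3d, Sema6d and Nrp1) lost their calls without any 1 of at least 3 libraries (highest adjusted p 0.064 to 0.13), and the lower members numbered 3 without ES24 and 14 without ES16.

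Transmitter receptors mostly did not pass the test. Of 18 glutamate receptor genes, 4 fell and 1 rose, with a median of -0.28, where 7.56% of all genes tested rose and 8.77% fell. Without ES8 the median was -0.087. Grik3, a kainate receptor subunit, was at 560.2, 591, 632 and 665 at P7 and 177, 324, 376 and 389 at P80, a difference of -1.01 ± 0.19 (SE), and Grik5 differed by -0.64 ± 0.13 (SE). Grin2c, an NMDA receptor subunit, rose from 24.03, 24.6, 34.01 and 52.4 to 58.8, 73.8, 87.2 and 109, a difference of 1.29 ± 0.30 (SE). The ages did not overlap in these 3 genes. Gria2 and Grin3a differed by -0.55 and -0.53 and lost their calls without ES8 (adjusted p 0.122 and 0.116), ES18, ES22 or ES24, each of which leaves 2 lower members.

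Of 16 GABA-A and glycine receptor genes, 3 fell and 1 rose, with a median of -0.13. Over all genes tested, 8.77% fell and 7.56% rose. Gabrg1, a GABA-A subunit, was at 231, 234, 288 and 291 at P7 and 104, 108, 132 and 132 at P80, a difference of -1.13 ± 0.19 (SE), with no overlap. Without ES8, 2 members rose and 1 fell, and the median turned to 0.082. The other calls passed narrowly and were lost when any 1 of several libraries was left out. Glrb (0.48) was lost without ES2, ES4, ES6, ES18, ES20, ES22 or ES24, adjusted p 0.0534 to 0.111. Gabra2 (-0.57) was lost without ES8, ES18, ES20 or ES22, adjusted p 0.0694 to 0.118, and Glra2 (-1.08) without ES8, ES18, ES22 or ES24, adjusted p 0.06 to 0.132. Glra1, the adult glycine receptor subunit, differed by 0.84 ± 0.30 (SE) and was not called with all libraries (adjusted p 0.0609), but was without ES8, at 1.26 and an adjusted p of 0.000216.

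Ratios within a library compare genes of a class against each other. For 12 pairs of a gene known to prevail late and a gene known to prevail early, the log2 ratio was compared by an exact two-sided permutation test, which with 4 against 4 libraries cannot give a p under 0.0286. In 9 of the 12 pairs the ages did not overlap (exact p = 0.0286, adjusted over all 12 pairs 0.0381), 8 of them with a higher ratio at P80. The ratio of the NMDA receptor subunits Grin2a to Grin2b was -1.89, -1.85, -1.76 and -1.74 at P7 and -1.45, -1.21, -1.16 and -1.08 at P80, a difference of 0.58. All 4 P80 ratios were higher, although neither gene was called alone. The ratio of the glycine receptor subunits Glra1 to Glra2 was 1.25, 1.98, 2.09 and 2.26 at P7 and 3.48, 3.59, 4.07 and 4.09 at P80, a difference of 1.91.

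The pair of histone methyltransferases Ezh1 to Ezh2 differed by 1.45, from -0.15, 0.06, 0.06 and 0.13 to 1.26, 1.36, 1.56 and 1.73, with P21 between them at 0.38, 0.66 and 0.74. The astrocyte pair of the glycolytic enzyme Aldoc to Fabp7 differed by 3.81, from 0.42, 0.53, 0.62 and 0.90 to 3.62, 4.63, 4.69 and 4.76. The kinase pair Camk2a to Camk2b differed by 0.97, the microtubule protein pair Map1a to Map1b by 0.88, the lectican pair Bcan to Ncan by 0.70 and the glutamate transporter pair Slc1a2 to Slc1a3 by 0.69. None of these pairs overlapped between the ages.

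The other pairs went otherwise. The ratio of Slc12a5, the chloride exporter KCC2 of mature neurons, to Slc12a2, the chloride importer NKCC1, was lower at P80: -2.93, -1.15, -0.10 and 0.01 against 0.08, 0.59, 0.60 and 0.74 at P7, a difference of -1.55. Slc12a5 itself differed by -0.08 ± 0.22 (SE) and was not called, whereas Slc12a2 rose from 987, 1064, 1099 and 1308 to 1999, 2039.5, 3403 and 6283, a difference of 1.46 ± 0.26 (SE). The lowest ratio was in ES8, where myelin genes were highest, and Slc12a2 is known also from oligodendrocytes; the part of glia in the ratio was not tested. The ratio of the sodium channels Scn1a to Scn3a differed by 0.78 (exact p = 0.114, adjusted 0.125), with overlapping ages.

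**Figure D5:**
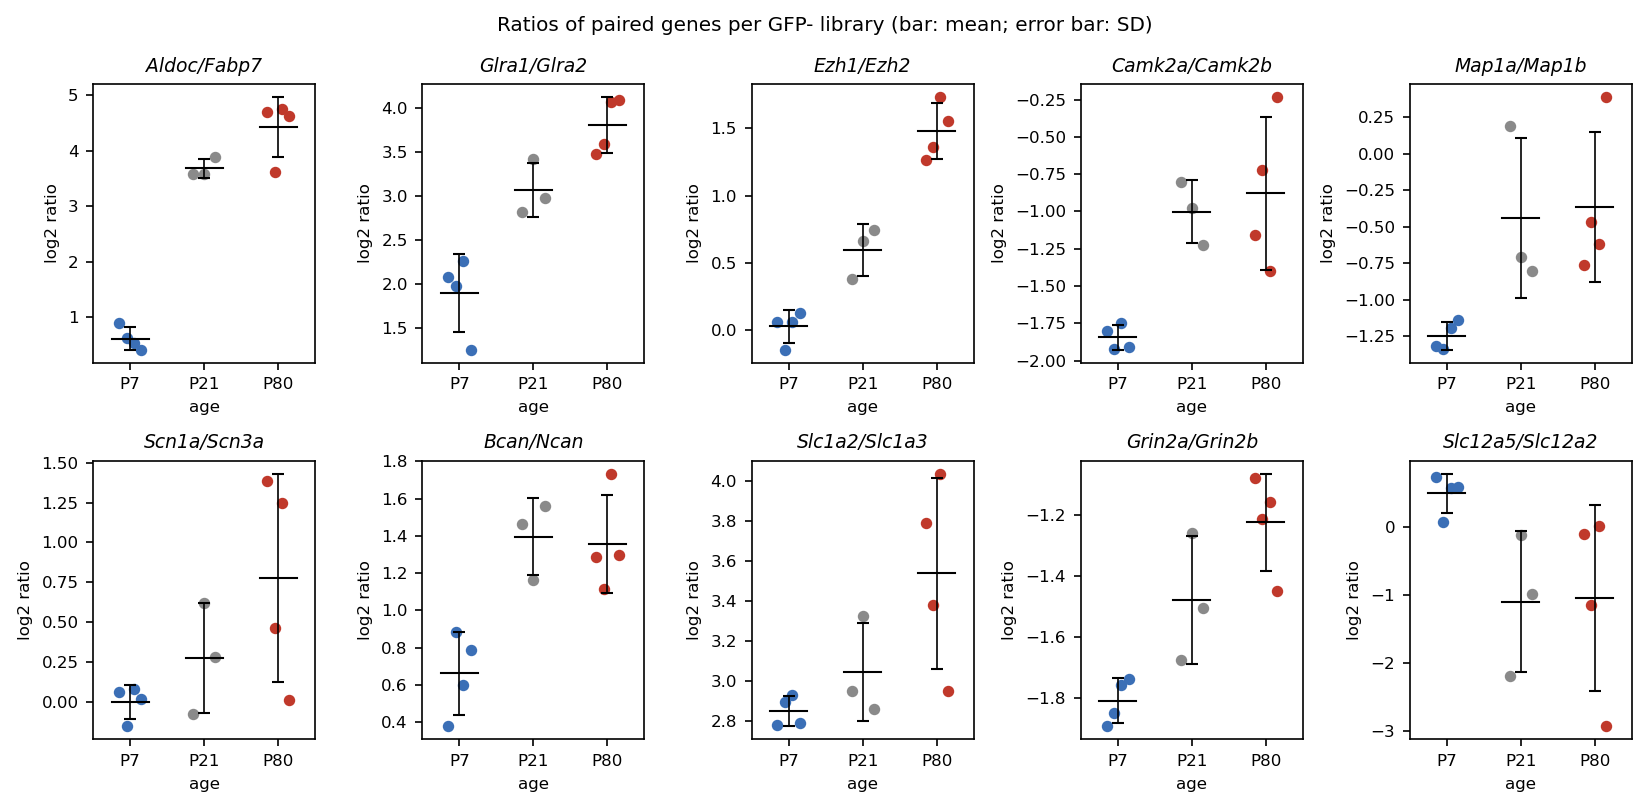
Points are the log2 ratio of a pair of genes in each GFP- library by age, with bars for the mean and error bars for the SD; the y axes differ between panels and do not start at 0. The panels show 10 of the 12 pairs tested. The ages P7 and P80 do not overlap for 9 of them, and Slc12a5/Slc12a2 is the pair that is lower at P80. The P21 libraries lie between or within the other ages for most pairs.

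The share of ion channel genes called was near that of all genes. Of 29 potassium channel genes, 3 rose and 3 fell, where 7.56% of all genes tested rose and 8.77% fell. Kcna1, a delayed rectifier that lies beside the node of Ranvier, was at 632, 666, 764 and 1008 at P7 and 3108, 3244, 3416 and 5227 at P80, a difference of 2.28 ± 0.24 (SE), and the related Kcna6 differed by 1.59 ± 0.21 (SE). Kcnn3, a calcium activated channel, fell by 0.86 on the log2 scale, and Kcnt2 and Kcnd2 differed by -0.80 ± 0.21 (SE) and -0.64 ± 0.17 (SE). ES8 was the highest P80 library for Kcna1 and the lowest for Kcnt2 and Kcnd2, and without it Kcnd2 differed by -0.40. In a limma fit of the 8 libraries alone Kcnd2 was not called (adjusted p 0.0605). Without ES8, 8 members rose and 3 fell. Kcnj3 lost its call without ES6 or ES20, adjusted p 0.0516 to 0.0674.

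Of 26 sodium, calcium and HCN channel genes, 3 rose and 3 fell, and without ES8 5 and 2, against the same 7.56% and 8.77% of all genes. Hcn2, a pacemaker channel, rose from 125, 126, 133 and 182 to 491, 512, 751 and 1656, a difference of 2.41 ± 0.31 (SE). Scn4b, a sodium channel beta subunit, rose from 23.6, 25.9, 33.1 and 37.5 to 56.1, 123, 252 and 302, a difference of 2.32 ± 0.39 (SE). In Hcn2 ES8 was the highest P80 library, and in Scn4b the lowest. Scn3a, a sodium channel of developing neurons, and Cacna1h, a T-type calcium channel, differed by -0.63 ± 0.15 (SE) and -0.72 ± 0.16 (SE). Scn3b (-0.69) lost its call without ES4, ES8, ES18, ES22 or ES24, adjusted p 0.0832 to 0.156.

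Of 25 genes of transmitter release, 2 rose and 1 fell, with a median of 0.04 that ranged from -0.14 to 0.31 with 1 library left out, where 16.3% of all genes were called in either direction. Stx1a, a syntaxin of vesicle fusion, was at 171, 172, 213 and 218 at P7 and 53.7, 66.6, 67.2 and 79.6 at P80, a difference of -1.52 ± 0.16 (SE). Every P80 value of Stx1a was less than every P7 value. Sv2a, a vesicle protein, rose by 0.54 ± 0.13 (SE); the higher members were Sv2a and Snap25, and without ES8 4 members rose. Of 16 genes of the node and axon initial segment, 2 rose and 2 fell: besides Cntn2, the membrane skeleton protein Epb4.1l3 differed by 0.76 ± 0.12 (SE) and the adhesion protein Cntn1 by -0.70 ± 0.17 (SE). Nfasc, which clusters channels at the node, lost its call without ES2, ES6 or ES20, adjusted p 0.0551 to 0.065, and 4 members rose without ES16.

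Of 11 genes of chloride transport, 4 rose and none fell, with a median of 0.30, where 7.56% of all genes tested rose. Besides Car2 and Slc12a2 these were Wnk1 and Stk39, kinases that activate NKCC1, at 0.56 and 0.42. Wnk1 lost its call without ES4, ES8 or ES18, adjusted p 0.0541 to 0.0764, and Stk39 without ES2, ES4, ES18, ES20 or ES24, adjusted p 0.0566 to 0.0974, which leaves 2 members without ES4 or ES18.

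Part of the cholesterol synthesis genes fell. Of 20 genes of cholesterol and fatty acid synthesis, 9 fell and none rose, with a median of -0.39, where 8.77% of all genes fell. The median was -0.26 without ES6 and -0.26 without ES20, and 7 fell without ES2 and 6 without ES6, with 1 higher in each case. Lss, which closes the sterol rings, went from 1220.1, 1392, 1414 and 1801 at P7 to 651, 729, 742 and 763 at P80, a difference of -1.002 ± 0.15 (SE) with an adjusted p of 5.13e-05. Fdps, which makes farnesyl diphosphate, differed by -1.14 ± 0.25 (SE). The P80 values of both genes were all under the P7 values, ES8 included. The score of the whole list was 9.18 in ES8, the highest at P80 and within the P7 range of 9.04 to 9.41. In the other P80 libraries it was 8.53, 8.54 and 8.90. Myelin genes were also highest in ES8, and the part of glia in these values was not tested.

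Hmgcs1, an early enzyme of the pathway, had 1058, 1091, 1184 and 1444 at P7, 1372, 1460.4 and 2155 at P21 and 572, 624, 782 and 911 at P80, a difference of -0.74 ± 0.15 (SE). Its P21 values were higher than most P7 values. Fasn, Acaca and Scd2, of fatty acid synthesis, differed by -0.46, 0.16 and 0.72 and were not called, nor were the regulators Srebf1 and Srebf2. Fasn was called lower without ES8 (adjusted p 0.00601), and Scd2 higher without ES2 (0.0155) or ES6 (0.0311). Cyp51, Idi1 and Dhcr7 lost their calls without ES2, ES6, ES18 or ES20, adjusted p 0.0586 to 0.157, ES6, ES8, ES20 or ES22, adjusted p 0.0626 to 0.112, and ES2, ES6, ES20, ES22 or ES24, adjusted p 0.0525 to 0.13, in that order. The sterol regulatory element (TCACNCCAC) is known as the site of the Srebf proteins. It was in 1 of the 5 members that fell and had a promoter window, Hmgcs1, and in 1.45% of all genes with a window. The 250 bases before the start of Hmgcs1 are shown for that reason, with the match in capitals, from RefSeq on GRCm38.p6, plus strand, at chr13:119690101-119690350:
Hmgcs1: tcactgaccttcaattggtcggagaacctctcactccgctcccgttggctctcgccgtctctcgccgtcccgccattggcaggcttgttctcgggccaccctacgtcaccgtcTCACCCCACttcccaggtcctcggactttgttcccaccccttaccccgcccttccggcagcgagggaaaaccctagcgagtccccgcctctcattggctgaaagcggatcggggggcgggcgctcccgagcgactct

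Part of the genes known to respond to glucocorticoid or thyroid hormone rose. Of 17, 7 rose and none fell, with a median of 0.54, where 7.56% of all genes rose, and without ES8 8 rose and 1 fell. The other members were not called. Pdk4, a kinase that limits glucose oxidation, was at 16.8, 21.8, 22.2 and 26.5 at P7 and 50.9, 93.3, 122 and 243 at P80, a difference of 2.29 ± 0.41 (SE). Tsc22d3, the glucocorticoid-induced leucine zipper, went from 75.8, 81.3, 85.8 and 87.9 to 155, 222, 299 and 554, a difference of 1.72 ± 0.27 (SE). Zbtb16, a transcription factor, went from 75.02, 91.6, 104 and 108 to 188, 202, 386 and 797, a difference of 1.80 ± 0.31 (SE). The ages did not overlap in these genes, and ES8 was the highest library. Per1, a clock gene, and Klf9, a transcription factor, differed by 1.07 ± 0.24 (SE) and 0.77 ± 0.18 (SE).

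Sgk1, a kinase of salt balance, was at 324, 333, 337 and 461 at P7 and 364, 748, 859 and 3194 at P80, a difference of 1.37 ± 0.38 (SE), with 1 P80 library among the P7 values. Without ES8 the difference was 0.78. Fkbp5, a chaperone of the glucocorticoid receptor, differed by -0.15 and was not called, nor were the receptors Nr3c1 (0.54) and Thrb (0.49). Thrb was called without ES8, at 0.78 with an adjusted p of 0.000847, and Nr3c1 without ES6 (adjusted p 0.0293) or ES16 (0.0341). Plin4 differed by 0.93 and lost its call without ES6, ES8, ES18, ES20 or ES24, adjusted p 0.0562 to 0.143. The labels give no time of collection, and the part of time of day was not tested.

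Some chromatin genes changed. Of 19, 3 rose and 4 fell, where 7.56% of all genes tested rose and 8.77% fell. Uhrf1, which brings the maintenance DNA methyltransferase to replicated DNA, was at 31.5, 34.2, 40.3 and 58.6 at P7 and 2.01, 2.24, 2.71 and 5.22 at P80, a difference of -3.40 ± 0.56 (SE). Dnmt1, that methyltransferase, differed by -0.57 ± 0.11 (SE), and the histone deacetylase Hdac2 by -0.50 ± 0.09 (SE). Ezh2 went from 363, 370.3, 379 and 419 to 167, 217, 238 and 242, a difference of -0.83 ± 0.14 (SE), and Ezh1 from 378, 379, 395 and 405 to 521, 559, 613 and 715, a difference of 0.62 ± 0.10 (SE). Each of these 5 genes separated the ages. Hdac11 (0.54) and Smarca2 (0.25) lost their calls without ES8 (adjusted p 0.0611 and 0.0564) or ES20 (0.0511 and 0.109), which leaves 1 higher member, and Smarca2 also without ES2, ES4, ES22 or ES24.

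Of 18 fetal growth and imprinted genes, 2 rose and 2 fell, near the shares of all genes (7.56% and 8.77%). Igf2bp2, a fetal RNA binding protein, was at 142, 164, 165 and 166 at P7 and 16.98, 23.1, 32.4 and 40.7 at P80, a difference of -2.52 ± 0.24 (SE), and Hmga2, a chromatin protein of growing tissue, differed by -1.28 ± 0.17 (SE). The ages did not overlap in either gene. Dlk1, an imprinted Notch ligand, rose from 15.1, 17.6, 20.7 and 29.04 to 57.9, 68.2, 95.3 and 109, a difference of 1.95 ± 0.37 (SE), and the imprinted zinc finger gene Plagl1 by 0.79 ± 0.18 (SE). Without ES8, 5 members rose and 3 fell.

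Of 9 nuclear long noncoding RNAs, Neat1, the scaffold of paraspeckles, rose from 1673, 2336, 2409 and 2416 to 6407, 7384, 9972 and 18195, with 5493, 6756 and 9203 at P21. Its difference was 2.14 ± 0.25 (SE), with no overlap, while Malat1, its genomic neighbour, differed by 0.04 ± 0.18 (SE) and was not called. Gas5, a host gene of small nucleolar RNAs, fell from 820.0, 845, 871 and 997 to 420.1, 437, 523 and 654, a difference of -0.81 ± 0.13 (SE). Rmst differed by -0.49 and lost its call without ES8, ES18, ES22 or ES24, adjusted p 0.0585 to 0.121. Of 25 cytosolic ribosomal protein genes, 5 fell and none rose, where 8.77% of all genes tested fell. Their median was -0.62 (-0.36 without ES2), and Rps18 and Rpl3 differed by -1.27 ± 0.27 (SE) and -1.02 ± 0.28 (SE). Without ES16, 10 of them fell. Ribosomal protein genes have many near-identical pseudogenes, so their counts are uncertain. With all libraries, no member was called by limma, edgeR or DESeq2 among 22 nuclear oxidative phosphorylation genes or 6 mitochondrially encoded genes. Of these 2 and 0 had an unadjusted limma p under 0.05. Their medians were -0.18 and 0.57, and ranged from -0.26 to -0.10 and from 0.12 to 1.04 with 1 library left out. Without ES16, 3 nuclear oxidative phosphorylation genes were called lower (Atp5b, Atp5a1 and Cox7c), and without ES8 or ES22 only Cox7c was.

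Other cell types that could enter the GFP- gate were followed by their marker lists. None of 15 microglial genes was called, with a median of 0.27 (-0.15 without ES8 and 0.54 without ES6), and none of 7 ependymal, 5 red blood cell or 14 MHC, interferon and complement genes, where 16.3% of all genes tested were called. Neither edgeR nor DESeq2 called any of these genes, and at an unadjusted limma p under 0.05 there were 0 microglial, 1 ependymal (Foxj1), 0 red blood cell and 1 interferon gene (Ifi27l1). Foxj1 was called without ES16 (adjusted p 0.00933), and Ifi27l1 without ES2, ES20 or ES16 (adjusted p 0.0233 to 0.0399). Of 12 endothelial genes, 1 fell, Flt1, a receptor of vascular growth factor, by -1.55 ± 0.52 (SE); it was not called without ES2, ES4, ES6, ES18, ES20, ES22 or ES24, adjusted p 0.0509 to 0.139. Of 10 mural genes, 4 fell, where 8.77% of all genes did. Rgs5, a regulator of G protein signalling in pericytes, was at 135, 165, 165 and 195 at P7 and 43.1, 49.1, 74.9 and 92.2 at P80, a difference of -1.38 ± 0.31 (SE). Its ages did not overlap, and it kept its call in all 9 refits. Leaving out ES2, ES20 or ES24 left it as the only mural gene called, since Abcc9, Notch3 and Cspg4 lost their calls.

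Of 10 meningeal genes, 1 rose and 1 fell, where 7.56% of all genes tested rose and 8.77% fell. The lower gene was Pdgfra, which precursors share. The higher gene was Ptgds, prostaglandin D synthase, which meningeal cells and oligodendrocytes are known to make. It was at 0.945, 1.61, 4.93 and 77.6 at P7, 49.8, 107 and 158 at P21 and 454, 536, 617 and 1927 at P80, a difference of 6.72 ± 0.91 (SE). Every P80 library was over every P7 library, and ES18 was the only P7 library over 5. The collagens Col1a1, Col1a2 and Col3a1 of the same cells differed by -0.51, -1.06 and -1.16 and were not called. Of 18 collagen and basement membrane genes, 4 fell and 1 rose, against the same 8.77% and 7.56% of all genes. Lama1, a laminin of the meningeal basement membrane, differed by -1.15 ± 0.26 (SE). Of the others, Lama4 was lost without ES2, adjusted p 0.05, and Col5a1, Col11a1 and Col25a1 without any 1 of at least 5 libraries, so that 2 to 6 members fell in the refits, with 6 without ES16.

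Of 14 activity-regulated immediate early genes, 1 rose and 0 fell, so the higher share was near the 7.56% of all genes tested. It was Arc, a synaptic capsid-like protein, which rose by 1.31 ± 0.29 (SE), from 52.9, 53.6, 58.2 and 66.95 to 104, 120.3, 131 and 266. Fos and Egr1 differed by 0.29 and 0.64 and were not called.

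The same age contrast was available in the GFP+ nuclei of these animals. The columns could not be paired by animal, so the fit took all libraries as independent. The difference between both age contrasts was tested in the same fit. It was called in 386 genes (2.07%), 307 with a more positive change in GFP- nuclei and 79 with a more negative one. Of the 386, 293 were called in the GFP- contrast, which is a term of the tested difference. The 12 highest genes named by size were chosen by that same GFP- contrast, so passing was favoured by the choice. Of these, 10 passed the test, all but Il33 and Rab37. Cntn2 differed by 0.41 ± 0.27 (SE) in GFP+ nuclei, and the difference between the contrasts was 2.67 ± 0.38 (SE) with an adjusted p of 0.00155. Among the 12 lowest it was passed by 0 in limma and 0 in edgeR, with 4 at an unadjusted limma p under 0.05, and 11 of these genes were also called in GFP+ nuclei. Over all 18614 genes tested, 1747 were called in GFP+ nuclei and 3041 in GFP- nuclei.

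Of the 18 myelin genes, 16 passed this test, all with a more positive change in GFP- nuclei, where 2.07% of all genes tested did. Mbp differed by -0.14 in GFP- and by -2.44 ± 0.31 (SE) in GFP+ nuclei, a difference of 2.30 ± 0.44 (SE) with an adjusted p of 0.00827. Aspa differed by 2.34 and -0.83 ± 0.37 (SE), a difference of 3.17 ± 0.52 (SE). Both values are negative in GFP+ nuclei, whose sort was meant to hold neurons, and the part of myelin RNA carried into that sort was not tested. Of the 26 cell cycle genes, 0 passed in limma and 0 in edgeR, with 6 at an unadjusted limma p under 0.05. In GFP+ nuclei 7 of the 26 were called, against 17 in GFP- nuclei, where 1747 and 3041 of all 18614 genes tested were called. Mki67 differed by -3.35 ± 0.40 (SE) in GFP+ nuclei. Of the 19 immature neuron genes, 1 passed, Stmn1, at 1.87 ± 0.41 (SE). Among the genes of the pairs, Slc12a2 differed between the contrasts by 1.60 ± 0.37 (SE) (adjusted p 0.0247) and Slc1a3 by 1.83 ± 0.43 (SE) (adjusted p 0.028). The count of 386 fell to 227 without ES18, 230 without ES4, 232 without ES24 and 252 without ES20, and rose to 622 without ES16.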

How the data were processed

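Nuclear RNA of 22 sorted samples was sequenced. Per the submitters' processing notes STAR, HTSeq, DESeq2, cutadapt and Trim Galore were used, with no version given; neither build nor annotation is stated in the sources used here. The deposited values are a signal, gene counts scaled per library; the steps between low values show 1 divisor for each library. All values were whole multiples of 1 step (100%, tolerance 0.01), so whole reads could be recovered. Columns were assigned to groups by the authors' sheets, since their codes are in no label.

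The filter on low values kept genes that reached 10 in 3 or more libraries. limma 3.58.1 (R 4.3.3; trend and robust options) fitted 6 group means to log2(value + 1) in all 22 libraries, with two-sided tests and Benjamini-Hochberg adjustment over all genes. Replicates are separate animals, per the labels. No gene list was given a set test. Some genes are in more than 1 list, among them Gpr17, Tnr, Vcan, Cspg4, Stmn2 and Tubb3, so the counts of such lists are not independent. The members and gene lists were chosen with earlier results of these data known. Genes named in the text are the 12 highest and 12 lowest called, non-overlapping genes of at least median level without clone names, members of the lists, and both genes of each pair; some of these genes, and 2 of the 12 pairs, are not reported here. The 39 lists name 604 symbols, 587 of them in the table; 20984 identifiers matched a current symbol. Alternatives were other pseudocounts and filters, TMM scaling, a fit of the 8 libraries alone, edgeR 4.0.16 and DESeq2 1.42.0 on recovered reads, and fits without each library, of which the fit without ES16 was chosen after seeing the data. The fit was tested on simulated data.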

Additional observations from a re-analysis of the deposited data

Results flagged for a closer look

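Single libraries far from the other 3 of their group were found in 18 of 276 groups of 4 tested, and chance gives about 1 in 20. At P7, ES20 was the lowest for Qdpr at 50.01 and the highest for Mki67 at 1874 and Gpr17 at 2935, ES18 was the highest for Ptgds at 77.6 and the lowest for Unc5b at 108, and ES24 was the lowest for Igf2bp2 at 142 and Neat1 at 1673 and the highest for Hcn2 at 182. At P80, ES8 was the highest for C1ql1 at 43.4, Abcc9 at 143, Ptgds at 1927, Kcna1 at 5227, Arc at 266 and Rpl10 at 93.1. It was the lowest for Gabra2 at 254, Kcnt2 at 223 and Kcnd2 at 326. ES2 was the lowest P80 library for Slc1a2 at 3546. ES8 thus held 9 of the 10 values at P80.

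A difference between the age changes of GFP- and GFP+ nuclei was found in 386 genes by limma's test of that difference. Of the pair genes, Slc12a2 differed by 1.60 and Slc1a3 by 1.83 on the log2 scale, each with a more positive change in GFP- nuclei.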

How the results depend on the processing

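No paired analysis was possible because the columns carry no replicate numbers and the ages are different animals. The 3041 called genes were 2478 to 3554 under the other settings, 2276 to 2895 with 1 of the 8 libraries left out, and 4056 without ES16. The count of genes whose change differed between the populations was 365 to 417, 227 to 545 and 622 in the same order. The count of called pairs was 0 in each fit with 1 library left out, by construction, since 3 against 4 libraries cannot give a p under 0.0571.

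None of the signs that turned belonged to a called value. With 1 of the 8 libraries left out, the age difference ranged from -0.25 to 0.17 in Calca, -0.70 to 0.088 in Csf1r, -0.022 to 0.23 in Gm872, -0.090 to 0.22 in Gabra3, -0.091 to 0.58 in Scn1a and -0.24 to 0.20 in Slc12a5. On whole reads Csf1r was 0.087 in edgeR and 0.10 in DESeq2. The difference from the GFP+ change ranged from -0.30 to 0.086 in Grin2b, -0.22 to 0.40 in Glra1, -0.47 to 0.20 in Scn1a, -0.36 to 0.078 in Slc12a5, -0.46 to 0.070 in Camk2b, -0.18 to 0.17 in Fabp7 and -0.037 to 0.12 in Ezh1; it was 0.090 for Glra1 in edgeR and 0.093 for Fabp7 at a pseudocount of 0.5. The cause was not tested.

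Of 188 called genes of the lists and of those named by size, 138 kept their call in each of 9 refits. Depth limits genes with few reads, such as Casr and Cdk1 at P80.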

Other observations

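Gene families outside the lists, chosen after their values were seen, are described by counts only, beside the 7.56% of all genes tested that rose and the 8.77% that fell. Of 38 replication histone genes (symbols starting with Hist), 16 fell and 0 rose, with a median of -1.09; their near-identical sequences make single counts uncertain. Of 16 centromere protein genes (Cenp), 7 fell and 0 rose, with a median of -0.66. Of 30 Hox genes, 9 fell and 0 rose, with a median of -0.38, among them Hoxb3, Hoxb4 and Hoxc10. Of 35 kinesin genes, 7 rose and 11 fell: those that fell include the mitotic motors Kif11, Kif23 and Kif15, and those that rose include Kif1b, Kif21a and Kif3c. Of 12 Abca lipid transporter genes, 5 rose (Abca2, Abca6, Abca7, Abca8a and Abca8b) and 0 fell. Of 11 Srsf splicing factor genes, 5 fell and 0 rose.

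P21 lay at different points relative to the other ages, and not always between them. The mean cholesterol and fatty acid synthesis score was 9.46 at P21, over both P7 (9.15) and P80 (8.79). The newly formed oligodendrocyte score was 8.38, 8.55 and 8.81 in the P21 libraries, against 9.17, 9.20, 9.34 and 9.67 at P7 and 7.13, 7.20, 7.54 and 7.68 at P80, between the ages in all 3. The hormone responsive score was 7.68, 7.98 and 8.01 at P21, within the P80 range of 7.23, 7.64, 7.82 and 8.48.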
